A study of Rattus norvegicus with 28 samples.

Results

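The genes that carry the symbols of proteasome subunits and their activators were followed through a cAMP response in rat beta cells. All symbols that begin with Psma, Psmb, Psmc or Psmd and a digit, and Psme1 to Psme4, were taken from the transcript table, which gave 45 of 17455 symbols, each with 1 transcript. Of these, 43 had a mean of at least 1 TPM (a level scaled to transcript length and to the whole library) over all libraries and were kept, out of 10275 genes at that level. Psma8, a testis form of an alpha subunit, and Psmb11, a subunit of the thymus, were left out at means of 0.002 and 0.044 TPM. The 43 genes comprised 8 of the alpha ring (Psma3l, a near copy of Psma3, included), 7 constitutive ones of the beta ring, 3 of the immunoproteasome, 6 ATPases and 11 other subunits of the 19S cap, 3 chaperones that help to assemble the cap, 4 activators, and Psmc3ip. Psmc3ip has a matching symbol but encodes a partner of the meiotic recombinases and no proteasome subunit, so 42 of the 43 belong to the proteasome by function. Among these symbols the mean level alone decided which were kept, and the family was taken up with earlier results of these data known.

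The cells were INS-1, a rat insulinoma line, as WT or with a knock-in that changes a serine of Med14, the scaffold of the Mediator complex, to alanine (Med14 S983A). Cells of both genotypes were moved to serum-free medium and left untreated (CON) or treated. Treatment was 10 nM Ex-4 (Exendin-4, a peptide that activates the GLP-1 receptor) or 10 µM FSK (forskolin, which activates adenylate cyclase directly) for 1, 8 or 16 h. This made 14 groups of 2 libraries. The labels give no time for CON, and the CON libraries of a genotype served for 1, 8 and 16 h. In comparisons with CON, time in the medium can therefore not be told apart from treatment. Knock-in lines were grown from single sorted cells after Cas9 editing, more than 1 such line was used in the study, and the labels do not say which line a library came from. Nothing in the labels says that the libraries of a group came from separate cultures, so p-values measure the spread between these samples, which may be technical.

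The proteasome is the protease that degrades proteins tagged with ubiquitin. Its 20S core is a barrel of alpha and beta rings in which the beta subunits Psmb6, Psmb7 and Psmb5 cut proteins, and its 19S cap binds ubiquitin chains, removes them and unfolds the substrate with a ring of ATPases. Under interferon, the subunits Psmb9, Psmb10 and Psmb8 take the place of Psmb6, Psmb7 and Psmb5 to form the immunoproteasome, and Psme1 with Psme2 forms the PA28 activator, both of which favour the making of peptides for MHC class I. When proteasome activity falls short, the factor Nrf1 (gene Nfe2l1) is known to raise the genes of the constitutive subunits together through antioxidant response elements. In beta cells the proteasome clears misfolded proinsulin that is exported from the endoplasmic reticulum.

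The libraries held 42551133 to 92635979 fragments, and the next largest after the Med14 S983A 8 h FSK library of replicate 2 had 57231981. The ERCC spike-in sequences, added to total RNA, made up 0.671% to 1.03% of the fragments and differed between groups, with group means between 0.693% and 0.956%. TPM values are relative to the whole library, so each direction below was also computed with libraries centred on their median gene and with libraries scaled on ERCC. A bulk level cannot tell fewer cells from less RNA per cell. Of 14 beta cell markers listed 12 were tested, and Ins1 and Iapp, at 33716 and 2729 TPM or more in every library, had the highest means together with Ins2. The markers differed between groups. Ins2 had 2885 and 2991 TPM in WT CON and 32620.4 and 37516 TPM in Med14 S983A CON, and the glucose transporter Slc2a2 534 and 499.8 and 63.6 and 61.7. In all, 4 of the 12 were higher and 5 lower in the mutant at CON. The marker lists for acinar cells, fibroblasts, leukocytes and endothelium each summed to at most 1.75 TPM in any library. Of 4 markers of other islet cells Gcg passed 1 TPM, and Sst, Ppy and Ghrl were at 0.171 TPM or less in every library. The mutation changes a codon, so the level of Med14 would not check the genotype.

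Over all libraries the subunits of the core and the cap were abundant and unequal. Psmb4, a structural beta subunit, and Psma7, an alpha subunit, had the highest means at 820.1 and 785 TPM. The lowest constitutive core gene was Psma3 at 83.1 TPM, and among the ATPases Psmc6 had 62.5 TPM against 467 TPM for Psmc1. Psma3 (chr6:93423029-93443025, rn6) and Psma3l overlap over 18902 bases, so reads may count for either gene and both levels are uncertain. The immunoproteasome genes stood well under their constitutive counterparts, with means of 10.5 TPM for Psmb8, 21.05 TPM for Psmb9 and 78.2 TPM for Psmb10, against 184, 238 and 429 TPM for Psmb5, Psmb6 and Psmb7. The 43 genes together made up 1.04% to 1.44% of all TPM.

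The log2(TPM + 1) values were compared with limma across all genes. A gene passed the test at a Benjamini-Hochberg adjusted p under 0.05 over 10275 genes, and was called where it also changed more than 1.5-fold. At 1 h, the proteasome genes hardly moved with Ex-4 in WT. No member rose and 3 fell, against 5.1% and 20.1% of all genes, and none was called (background 2.87%; limma gave 3 members at an unadjusted p under 0.05, and edgeR and both DESeq2 fits called 0). FSK for 1 h lowered 7 members and raised none (background 37.3% and 6.91%), with no call (background 7.47%; 9 at an unadjusted p under 0.05 in limma, and 0 calls by edgeR and DESeq2). Of these 7, 3 were chaperones and 4 cap subunits other than ATPases. The falls at 1 h of FSK depended on scaling, since 16 members passed as higher and 1 as lower with median centring and 0 and 1 with ERCC. In Med14 S983A 2 members rose and 1 fell at 1 h of Ex-4 (background 6.81% and 19.4%), and 1 rose and 13 fell at 1 h of FSK (background 9% and 43.4%), among them all 7 that fell in WT (83.8% of all genes that fell in WT did so in the mutant). Neither gave a call (background 3.04% and 10.4%; 7 and 15 at an unadjusted p under 0.05 in limma; 0 by edgeR and by DESeq2 on its own size factors, and 0 and 1 with ERCC size factors). The 13 falls also turned with the scaling, as 20 members passed as higher and 1 as lower with median centring and 0 and 33 with ERCC.

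The gene that fell most at 1 h was Psmd5, a chaperone that holds ATPase subunits while the cap is built. It had 82.5 and 84.3 TPM in WT CON, 68.7 and 67.5 after 1 h of Ex-4 and 58.8 and 55.5 after 1 h of FSK. The 3 groups did not overlap, and FSK libraries were the lowest. The log2 changes were -0.29 ± 0.044 (SE, adjusted p = 2.14e-05) with Ex-4 and -0.54 ± 0.044 (SE, adjusted p = 2.49e-10) with FSK, and their direct comparison put Ex-4 higher by 0.25 ± 0.044 (SE, adjusted p = 2.10e-04). In Med14 S983A cells Psmd5 went from 98.9 and 90.02 TPM to 82.2 and 81.9 with Ex-4 and 65.2 and 68.8 with FSK. Those changes were -0.20 ± 0.044 (SE, adjusted p = 0.00133) and -0.49 ± 0.044 (SE, adjusted p = 1.01e-09), and the interaction with genotype did not pass for either agent (adjusted p = 0.738 and 0.784). All 4 falls kept their direction under both other scalings, and with ERCC those after FSK passed and those after Ex-4 did not (adjusted p = 0.0511 in WT and 0.207 in the mutant). By 8 h the level of Psmd5 was above CON in all 4 treatments, by 0.21 and 0.23 in WT and 0.21 and 0.31 in the mutant (all passed). The other chaperones Psmd10 and Psmd9 passed as lower after 1 h of FSK, with changes of -0.23 and -0.16 in WT and -0.20 and -0.14 in the mutant, where Psmd9 turned to 0.01 with median centring.

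After 8 h of Ex-4, the constitutive subunits of WT cells rose by small amounts while the immunoproteasome genes and PA28 fell. In all, 28 members rose and 6 fell, against 17.4% and 41.8% of all genes, and the median change was 0.11 over the members and -0.10 over all genes. The risers were 25 of the 32 constitutive subunits of the core and cap, 2 chaperones and Psme3, and none of the 32 fell. None was called at 1.5-fold (background 9.6%; 34 at an unadjusted p under 0.05 in limma; 0 calls by edgeR and by DESeq2 on its own size factors, 1 with ERCC size factors). The alpha subunit Psma1 rose most among the members. It went from 528 and 536 TPM in CON to 692 and 730.3, with no overlap, a change of 0.42 ± 0.03 (SE, adjusted p = 1.80e-11). All 6 falls (Psmb8, Psmb9, Psmb10, Psme1, Psme2 and Psmc3ip) stayed negative under both other scalings, and with ERCC 1 of them passed.

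By 16 h of Ex-4 the immunoproteasome genes were still lower, and whether the constitutive genes were near CON depended on the scaling. The median over the 32 constitutive subunits was 0.13 at 8 h and 0.04 at 16 h by TPM, 0.26 and 0.23 with median centring, and 0.28 and 0.38 with ERCC. Now 7 members rose and 10 fell (background 16.3% and 52.4%), with a median of 0.02 over the members and -0.16 over all genes. The direction of the small changes rested on the scaling, as 32 rose and 4 fell with median centring and 34 and 1 with ERCC, and all 32 constitutive subunits then had positive changes. The largest rises were those of Psmd14, the deubiquitinase of the cap (0.18, SE 0.049, adjusted p = 0.00267), Psmb3 (0.16, SE 0.034, adjusted p = 2.24e-04) and the ATPase Psmc4 (0.13, SE 0.035, adjusted p = 0.0023), none of them near 1.5-fold. The largest falls were the 3 immunoproteasome genes, and Psmb9 alone was called (background 8.28%).

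**Figure D1:**
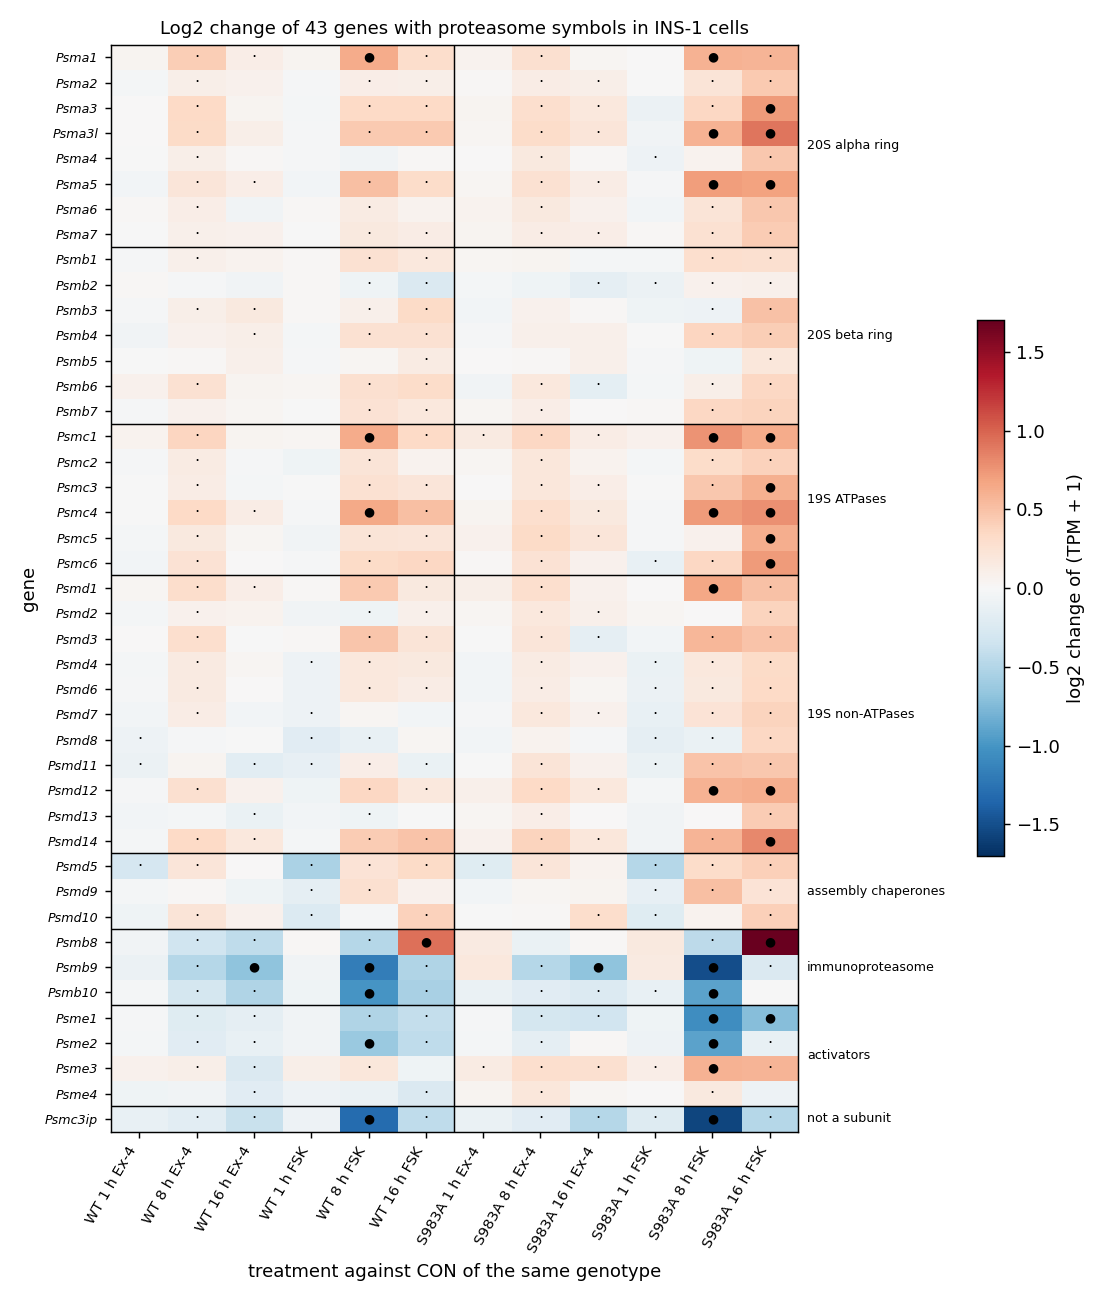
Log2 change of (TPM + 1) for 43 genes (rows, grouped by role) in 12 treatments against CON of the same genotype (columns), with red for higher and blue for lower. Large dots mark called genes and small dots genes past the test without the fold minimum. Most core and cap rows are red at 8 h and in Med14 S983A at 16 h of FSK, while Psmb9, Psmb10, Psme1 and Psme2 are blue at 8 h of FSK; faint colours at 1 h and at 16 h of Ex-4 changed sign with the scaling for some genes.

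By TPM, FSK for 8 h also raised most constitutive subunits and lowered the immunoproteasome genes and PA28. In WT, 28 members rose and 10 fell, where 21.4% of all genes rose and 63.1% fell, and the medians were 0.18 for the members and -0.34 for all genes. Called were 3 rises (background 8.77%), of Psma1, Psmc1 and Psmc4, and 4 falls (background 34.8%), of Psmb9, Psmb10, Psme2 and Psmc3ip. With median centring, which moved the median of all genes to 0.05, 21 members were called higher and 3 lower. Of the 32 constitutive subunits 25 rose and 4 fell, and the 4 (Psmb2, Psmd2, Psmd8 and Psmd13) turned positive with median centring. The islet cell marker Gcg moved with these changes, from 165 and 169 TPM in WT CON to 1225 and 1345 at 8 h of FSK and from 6.09 and 6.55 to 102 and 110.3 in the mutant, and its part in them was not tested. Of the 12 beta cell markers 2 rose and 9 fell at 8 h of FSK in WT, and 1 and 11 in the mutant, and their part was not tested either. The ATPase Psmc4 went from 291 and 302 TPM in CON to 478 and 451, a change of 0.64 ± 0.035 (SE, adjusted p = 6.18e-15). The ATPase Psmc1 went from 387 and 393 TPM to 599 and 605, a change of 0.62 ± 0.036 (SE, adjusted p = 1.93e-14). Psma1 went from 528 and 536 TPM to 826 and 824, a change of 0.63 ± 0.03 (SE, adjusted p = 4.66e-16). In each of these genes the treated libraries lay above both CON libraries by more than the gap between replicates. By role, the median change was 0.25 over the alpha ring (-0.05 to 0.63), 0.25 over the constitutive beta ring (-0.08 to 0.27), 0.29 over the ATPases (0.21 to 0.64) and 0.17 over the other cap subunits (-0.12 to 0.47). The 6 ATPases thus all rose.

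At 16 h of FSK the constitutive genes of WT stayed raised. There 27 members rose and 8 fell (background 25.6% and 54.9%), with medians of 0.17 and -0.20, and 1 was called, Psmb8 (background 10.3%). The number called was 6 with median centring and 17 with ERCC. In the same libraries 2 of the 12 beta cell markers rose and 10 fell. After Psmb8 the largest rises were those of Psmc4, at 422 and 426 TPM, 0.51 ± 0.035 (SE, adjusted p = 8.64e-13), and Psmd14, from 105 and 111 TPM in CON to 152 and 153, 0.49 ± 0.049 (SE, adjusted p = 1.47e-09). The largest falls were those of Psmb10, Psmb9 and Psme2, given with their groups below. Psmb2, a structural beta subunit, was an exception among core genes, falling from 671 and 678 TPM to 565 and 576 (-0.24, SE 0.032, adjusted p = 1.59e-07), a direction that ERCC scaling turned to 0.16.

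Of the 3 constitutive active sites Psmb5 had the smallest change at 8 and 16 h of FSK in both genotypes by TPM, an order that was not tested and did not hold at 16 h of Ex-4 in WT (0.09, against 0.04 for Psmb6 and 0.03 for Psmb7). Psmb5, the chymotrypsin-like site, had 181 and 183 TPM in WT CON, 188 and 185 after 8 h and 201 and 200.5 after 16 h of FSK, and passed the test at 16 h alone (0.14, SE 0.043, adjusted p = 0.00381; at 8 h 0.04, adjusted p = 0.396). Psmb6, the caspase-like site, rose from 223 and 230.2 TPM to 280.1 and 266 at 8 h (0.27, SE 0.043, adjusted p = 3.78e-06) and 284 and 279 at 16 h (0.31, SE 0.043, adjusted p = 4.40e-07). Psmb7, the trypsin-like site, rose from 416 and 429.8 TPM to 501 and 505 at 8 h (0.25, SE 0.042, adjusted p = 6.16e-06). No Psmb5 library left the range of 164 to 206 TPM in any of the 14 groups.

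By TPM, the 3 immunoproteasome genes fell with both agents in WT, and Psmb8 was higher at 16 h of FSK. Psmb9 (chr20:3973424-3978845) and Psmb8 (chr20:3990809-3993772) lie 11964 bases apart in rn6. Psmb9 had 29.5 and 30.98 TPM in WT CON, 23.3 and 19.5 after 8 h and 17.2 and 19.7 after 16 h of Ex-4, 13.04 and 12.5 after 8 h and 21.03 and 20.9 after 16 h of FSK. All treated libraries at 8 and 16 h lay below both CON libraries, and those of 8 h FSK were the lowest. The changes were -0.68 ± 0.083 (SE, adjusted p = 1.29e-07) at 16 h of Ex-4 and -1.18 ± 0.083 (SE, adjusted p = 1.43e-12) at 8 h of FSK. The first lost its call with median centring (-0.50) and with ERCC (-0.36), and at 16 h of FSK the fall of -0.51 did not pass with ERCC (-0.12, adjusted p = 0.313).

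Psmb10 followed the same course at a higher level. It had 95.9 and 97.9 TPM in WT CON, 68.1 and 67.8 after 16 h of Ex-4, 48.4 and 47.1 after 8 h and 67.2 and 64.1 after 16 h of FSK. The changes were -0.51 ± 0.046 (SE, adjusted p = 1.01e-09), -1.005 ± 0.046 (SE, adjusted p = 2.43e-16) and -0.55 ± 0.046 (SE, adjusted p = 5.42e-11). With ERCC the first and last of these shrank to -0.18 and -0.16 and did not pass.

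By TPM, Psmb8 moved with them at 8 h and at 16 h of Ex-4, and apart from them at 16 h of FSK. In WT it had 9.99 and 8.67 TPM in CON, 7.12 and 7.11 after 8 h and 7.17 and 6.11 after 16 h of Ex-4, 7.06 and 5.68 after 8 h of FSK, and 18.2 and 19.3 after 16 h of FSK. The 16 h FSK libraries were above all others of the genotype and did not overlap with any. The fall at 16 h of Ex-4 was -0.44 ± 0.094 (SE, adjusted p = 2.48e-04) and the rise at 16 h of FSK was 0.94 ± 0.094 (SE, adjusted p = 1.47e-09), and the direct comparison of Ex-4 with FSK at 16 h gave -1.37 ± 0.094 (SE, adjusted p = 2.13e-12). The direct comparison held under both other scalings (-1.43 and -1.45), while the falls at 8 h of FSK and at 16 h of Ex-4 are given by TPM alone. Median centring moved the median over all members for WT 8 h FSK from 0.18 to 0.57. ERCC scaling moved the median over all members for WT 16 h Ex-4 from 0.02 to 0.35.

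In Med14 S983A cells the same 3 genes fell by TPM at 8 h of FSK and the rise of Psmb8 at 16 h was larger. The fall of Psmb8 is given by TPM alone, and median centring moved the median over all members there from 0.23 to 0.57. Psmb9 went from 22.8 and 23.9 TPM in CON to 8.05 and 7.05 at 8 h of FSK, -1.51 ± 0.083 (SE, adjusted p = 8.33e-15), and Psmb10 from 92.01 and 89.1 TPM to 48.9 and 46.4, -0.91 ± 0.046 (SE, adjusted p = 1.45e-15). With median centring Psmb10 was at -0.58 and not called. Psmb9 was also called lower at 16 h of Ex-4, at 12.9 and 15.5 TPM, -0.69 ± 0.083 (SE, adjusted p = 1.31e-07), and without replicate 1 of that group the change was -0.56 and not called. Psmb8 went from 8.79 and 8.51 TPM in CON to 6.49 and 5.69 at 8 h and 28.1 and 32.1 at 16 h of FSK. Its rise at 16 h was 1.69 ± 0.094 (SE, adjusted p = 1.62e-14), the largest rise among the members in any treatment. Psmb10 was back at 87.3 and 93.7 TPM at 16 h of FSK in the mutant and still low in WT, an interaction of 0.55 ± 0.065 (SE, adjusted p = 1.12e-07) that kept its sign under both other scalings.

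**Figure D2:**
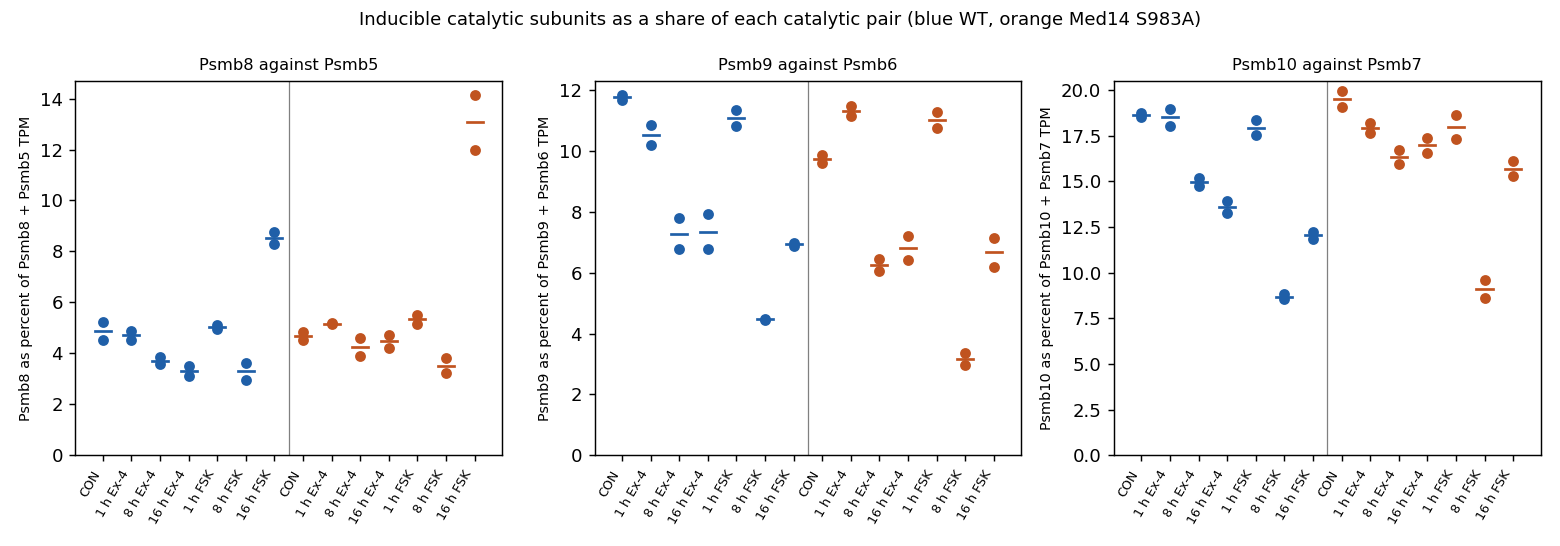
Level of each immunoproteasome gene as a percent of its own TPM plus that of the constitutive counterpart, for Psmb8 and Psmb5, Psmb9 and Psmb6, and Psmb10 and Psmb7 (points are libraries, bars are means of 2). Psmb8 reached 8.31% and 8.78% in WT and 11.99% and 14.1% in Med14 S983A at 16 h of FSK, and Psmb9 and Psmb10 were lowest at 8 h of FSK in both genotypes.

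As a share of each catalytic pair, a ratio that no scaling of libraries changes, the directions in WT at 8 and 16 h were the same. A share also falls where the constitutive partner rises, so it does not show which gene of the pair moved. Psmb9 made up 11.69% and 11.9% of the Psmb9 and Psmb6 level in WT CON, 4.45% and 4.49% at 8 h of FSK and 6.77% and 7.94% at 16 h of Ex-4. Psmb10 made up 18.7% and 18.6% of its pair in CON and 8.82% and 8.54% at 8 h of FSK. Psmb8 made up 5.24% and 4.53% of its pair in CON and 3.62% and 2.97% at 8 h of FSK. At 16 h of FSK the Psmb8 share was above both CON libraries, while Psmb9 at 6.89% and 6.98% and Psmb10 at 12.2% and 11.86% were below theirs. In Med14 S983A the Psmb10 share at 16 h of FSK was 15.3% and 16.1%, against 19.1% and 19.9% in CON. By level Psmb10 was back near CON in those libraries, so share and level differed there.

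The promoters of the 3 catalytic pairs are printed to set them side by side, with that of Psmb2, which was chosen after the search because it alone held both elements, each as the last 150 bases before the start of the RefSeq gene in GRCr8, in the direction of transcription. Of the 43 members, 38 matched an entry of the promoter table. The capitals in Psmb5 and Psmb6 mark TGACNNNGC, the core of the antioxidant response element, and in Psmb2 that core and the full cAMP response element TGACGTCA. In Psmb8 they mark CCAAT (the site of NF-Y) on the opposite strand, in Psmb7 the same letters on the strand printed, and in Psmb9 the partial cAMP response element TGACG, also on the opposite strand. Capitals do not mark every match of these motifs. TGACG also lies within the marked cores of Psmb5 and Psmb6, and in Psmb6 on the opposite strand 73 bases before the start. CCAAT also lies 72 bases before the start in Psmb2. None of the 4 motifs was found in Psmb10, and TGACNNNGC was not found in Psmb7.
Psmb5, chr15:32047380-32047529, minus strand: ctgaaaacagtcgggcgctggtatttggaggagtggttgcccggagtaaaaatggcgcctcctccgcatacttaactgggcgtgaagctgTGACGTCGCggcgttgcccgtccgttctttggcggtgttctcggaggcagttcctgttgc
Psmb6, chr10:55737738-55737887, plus strand: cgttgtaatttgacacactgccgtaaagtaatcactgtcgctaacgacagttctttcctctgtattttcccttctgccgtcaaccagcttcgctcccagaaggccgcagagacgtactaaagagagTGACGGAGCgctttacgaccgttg
Psmb7, chr3:42827471-42827620, minus strand: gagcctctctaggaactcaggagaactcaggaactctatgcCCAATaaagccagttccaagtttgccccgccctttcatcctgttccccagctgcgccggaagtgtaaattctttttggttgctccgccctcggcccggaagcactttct
Psmb2, chr5:144254908-144255057, plus strand: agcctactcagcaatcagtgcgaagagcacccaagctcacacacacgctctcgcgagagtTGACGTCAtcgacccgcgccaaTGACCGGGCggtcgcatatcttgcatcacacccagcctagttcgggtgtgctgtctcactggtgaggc
Psmb8, chr20:4657032-4657181, minus strand: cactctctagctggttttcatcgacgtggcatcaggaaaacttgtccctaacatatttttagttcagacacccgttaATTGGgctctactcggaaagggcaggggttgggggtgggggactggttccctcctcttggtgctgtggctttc
Psmb9, chr20:4668850-4668999, plus strand: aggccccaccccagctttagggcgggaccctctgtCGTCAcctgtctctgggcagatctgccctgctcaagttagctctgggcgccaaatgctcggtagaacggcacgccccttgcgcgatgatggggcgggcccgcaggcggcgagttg
Psmb10, chr19:50743293-50743442, minus strand: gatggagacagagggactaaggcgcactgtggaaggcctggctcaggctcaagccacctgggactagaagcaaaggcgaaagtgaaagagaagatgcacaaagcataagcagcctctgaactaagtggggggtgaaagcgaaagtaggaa

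Over the whole window of 250 bases before to 50 after a start, on both strands, TGACNNNGC was found in 8 of 38 members (21.1%), and in 12.1% of all 33469 promoters and 15.1% of those of tested genes. Its first base lay 60 bases before the start in Psmb5, 24 in Psmb6 and 68 in Psmb2. TGACG, which TGACGTCA contains and TGACNNNGC can overlap, was found in 36.8% of members, 21.2% of all promoters and 33.1% of those of tested genes. TGACGTCA was found in Psmb2 alone of the members (2.6%, against 1.8% and 3.3%). CCAAT was in 52.6% of members and 37.5% and 37.6% of the others. Psmb2, with both elements, was 1 of the 4 constitutive subunits that passed as lower at 8 h of FSK in WT (-0.08). That fall turned positive with median centring, and in the mutant the change of Psmb2 was 0.07. The motif matches describe the letters and carry no test.

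At 8 h the activators split in the same way as the core. By TPM, all 4 passed as lower at 16 h of Ex-4 in WT (Psme3 at -0.25). At 16 h of FSK in WT 3 passed as lower and 0 as higher (backgrounds given above). Psme1 (chr15:34256071-34258947) and Psme2, which form PA28 and lie 6608 bases apart in rn6, fell at 8 h, while Psme3, the nuclear PA28 gamma, rose at 8 h. Psme4, the nuclear activator PA200, stayed between 68.6 and 109 TPM in every library. Psme1 had 155 and 162 TPM in WT CON, 112 and 110.0 at 8 h and 119 and 121 at 16 h of FSK. Psme2 had 63.1 and 65.1 TPM, 41.1 and 40.7 and 47.2 and 46.9. For both genes the 8 h FSK libraries were lowest and did not overlap with CON. The falls at 8 h by TPM were -0.51 ± 0.038 (SE, adjusted p = 4.82e-12) and -0.63 ± 0.039 (SE, adjusted p = 6.90e-14), and that of Psme1 is given by TPM alone. Psme2 was called, and its change was -0.24 with median centring, where it was not. The falls of both at 16 h of FSK (-0.40 and -0.44) were -0.01 and -0.05 with ERCC and then did not pass, and those at 16 h of Ex-4 (-0.15 and -0.13) turned positive under both other scalings.

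Psme1 had a more negative response to FSK in Med14 S983A than in WT, with an interaction of -0.55 ± 0.054 (SE, adjusted p = 8.24e-09) at 8 h and -0.32 ± 0.054 (SE, adjusted p = 2.22e-05) at 16 h. In the mutant it went from 157 and 149 TPM in CON to 73.4 and 72.2 at 8 h and 91.99 and 92.8 at 16 h of FSK, changes of -1.06 ± 0.038 (SE, adjusted p = 1.37e-18) and -0.72 ± 0.038 (SE, adjusted p = 6.96e-15). The later one was not called with median centring (-0.57) or ERCC (-0.48). Psme2 went from 70.2 and 73.3 TPM to 36.7 and 38.4 at 8 h, -0.92 ± 0.039 (SE, adjusted p = 3.07e-17), which was -0.58 and not called with median centring. At 16 h of FSK it had 66.7 and 64.7 TPM, still below both CON libraries (-0.13, SE 0.039, adjusted p = 0.00478), and turned to 0.02 with median centring and 0.12 with ERCC. Psme3 rose from 108 and 103 TPM to 159 and 161 at 8 h, 0.60 ± 0.039 (SE, adjusted p = 3.64e-13), and stayed at 159 and 156 at 16 h. In WT, Psme3 had 116 and 117 TPM in CON, 132 and 135 at 8 h of FSK and 97.3 and 98.2 at 16 h of Ex-4. Psme4 passed as lower in WT at 16 h of Ex-4 (-0.19) and of FSK (-0.25), which ERCC scaling turned to 0.14 and 0.15, and as higher in the mutant at 8 h of Ex-4 (0.19) and of FSK (0.16).

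**Figure D3:**
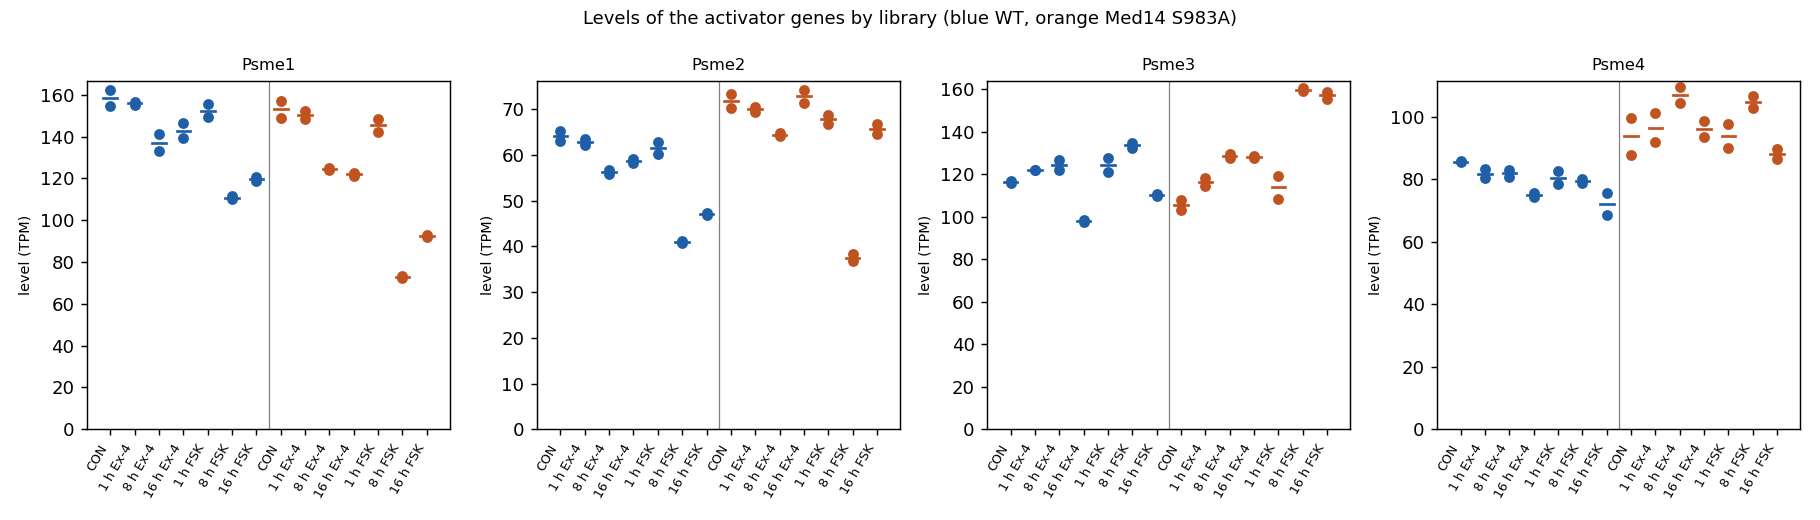
Level in TPM of Psme1, Psme2, Psme3 and Psme4 in each library (points; bars are means of 2) by genotype and treatment. Psme1 and Psme2 are lowest at 8 h of FSK in both genotypes, and Psme3 in Med14 S983A is highest at 8 and 16 h of FSK, with all 4 libraries between 156 and 161 TPM.

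Ex-4 and FSK were also set against each other in WT at each time, which avoids the shared CON libraries. At 1 h 2 members were higher with Ex-4 and none lower (background 10% and 3.3%), Psmd5 and Psmd8 (0.10), with no call (background 1.79%; 3 at an unadjusted p under 0.05 in limma and 0 calls by edgeR and DESeq2). At 8 h 10 were higher and 14 lower (background 58.6% and 18.3%), a split that went to 4 and 36 with median centring and 11 and 0 with ERCC. Called higher with Ex-4 at 8 h were Psmb9 (0.70, SE 0.083, adjusted p = 4.63e-08), Psmb10 (0.70, SE 0.046, adjusted p = 7.20e-13) and Psmc3ip (1.13, SE 0.064, adjusted p = 3.80e-14), 3 of 43 against a background of 23.3%. Median centring took the first 2 of these under 1.5-fold, at 0.43 and 0.44, and without WT 8 h Ex-4 replicate 1 Psmb9 stood at 0.57. At 16 h 3 were higher and 27 lower (background 37.6% and 30.8%), and Psmb8 was the called member (background 7.29%). At that time 22 of the 32 constitutive subunits had less with Ex-4 and 1, Psmb2, had more, and 31 of the 32 differences were negative under each of the 3 scalings.

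The Med14 S983A CON cells had slightly less of most subunits than WT CON by TPM, and not by ERCC. In all, 4 members were higher and 26 lower (background 25.8% and 40.4%), with a median of -0.12 against -0.07 for all genes. The split was 7 and 13 with median centring and 8 and 1 with ERCC, where the median turned to 0.09. Psmd1, the scaffold of the cap base, was the called member (background 8.29%). It had 169 and 167 TPM in WT CON and 277 and 265 TPM in Med14 S983A CON, and every library of the mutant lay above every WT library over all treatments, a difference of 0.69 ± 0.039 (SE, adjusted p = 4.02e-14). Psmb2 had 671 and 678 TPM and 879.8 and 883 TPM, 0.39 ± 0.032 (SE, adjusted p = 6.82e-11), and Psmd5 was higher by 0.18 ± 0.044 (SE, adjusted p = 0.00112). The lowest were Psmd9, with 102 and 102 TPM in WT and 73.3 and 72.1 in the mutant (-0.48, SE 0.043, adjusted p = 3.62e-10), Psmb9 (-0.36, SE 0.083, adjusted p = 5.54e-04) and Psma3l (-0.33, SE 0.053, adjusted p = 7.53e-06). The 3 members that differed most moved with their chromosomal neighbours. Of the 50 tested genes around Psmd1 on chromosome 9, 48 were higher in the mutant, with a median difference of 0.82. Around Psmb2 on chromosome 5, 43 of 50 were higher (median 0.46), and around Psmd9 on chromosome 12, 1 of 50 was higher (median -0.64). Around Psmb9 the median was -0.02 and around Psma3l -0.05. Around Psmd6 on chromosome 15, 6 of 50 were higher (median -0.42), while Psmd6 itself differed by -0.12. Whether the neighbours have a part in these differences was not tested. Gcg, the marker of alpha cells, also differed between the genotypes at CON (values above), and its part in the genotype difference was not tested.

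**Figure D4:**
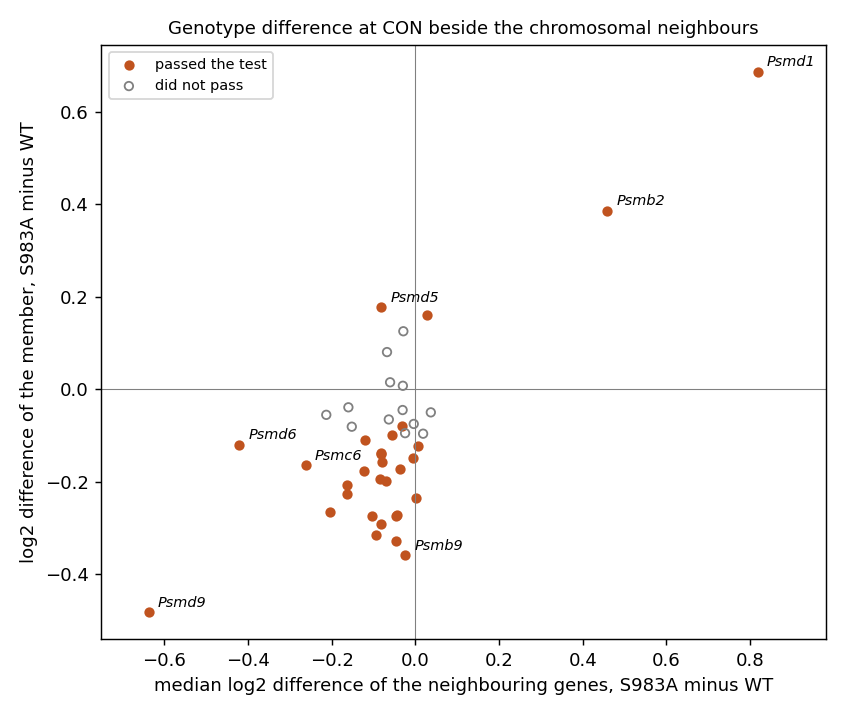
Difference of each member between untreated genotypes (Med14 S983A minus WT, log2 of TPM + 1) against the median difference of its neighbouring tested genes in rn6, 25 on each side where the chromosome allows. Psmd1 and Psmb2 are high together with their neighbours and Psmd9 low with its own, while most members lie near 0 on the x axis and below 0 on the y axis, where ERCC scaling moves 15 of the 26 lower ones above 0.

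Most proteasome genes responded in the mutant too, and at 16 h of FSK by more than in WT. At 1 h the interaction of genotype and treatment passed for 0 members with either agent (limma; 3 with Ex-4 and 1 with FSK at an unadjusted p under 0.05; 0 calls by edgeR and DESeq2; background 0.876% and 0.672% with Ex-4, 2.91% and 2.93% with FSK), and 0 were called (background 0.672% and 1.64%). At 8 h of Ex-4 it was 5 higher and 1 lower (background 14.2% and 4.42%) and at 8 h of FSK 11 and 7 (background 30.3% and 23.3%), without a call (background 2.77% and 13.9%; 7 and 20 at an unadjusted p under 0.05 in limma; edgeR and each DESeq2 fit called 0 and 1). With 16 h of Ex-4 11 were higher and 4 lower (background 29.1% and 12.9%), which became 2 and 10 with median centring and 0 and 31 with ERCC. The largest positive differences there were those of Psme3 (0.52, SE 0.056, adjusted p = 5.95e-08), Psmb8 (0.45, SE 0.13, adjusted p = 0.00775) and Psmb10 (0.27, SE 0.065, adjusted p = 0.00202), and the largest negative ones those of Psmb6 (-0.20, SE 0.061, adjusted p = 0.0105), Psme1 (-0.18, SE 0.054, adjusted p = 0.0115) and the cap subunit Psmd3 (-0.15, SE 0.054, adjusted p = 0.0267). None of the members was called (background 7.24%; 15 at an unadjusted p under 0.05 in limma; 0 calls by edgeR and by DESeq2 on its own size factors, 2 with ERCC size factors), and with ERCC Psmb10 turned to -0.17.

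For 16 h of FSK, 34 members had a more positive response in Med14 S983A and 1, Psme1, a more negative one, against 35.9% and 22.1% of all genes. The median difference was 0.31 over the members and 0.08 over all genes, 0.22 over the members with median centring and 0.16 with ERCC, where 4 and 1 members passed. In the mutant itself 37 members rose and 4 fell (background 32.1% and 46.8%), and all 32 constitutive subunits rose, with each direction kept under both other scalings. All 27 members that rose in WT were among the 37 (73.0% of the mutant list), where 76.9% of all genes that rose in WT did so in the mutant (61.4% of its list). Beta cell markers fell in the same libraries, 10 of 12 with 9 called, and none rose. Ins2 went from 32620.4 and 37516 TPM in Med14 S983A CON to 6719 and 6724, and the beta cell factors Neurod1 from 215 and 221 TPM to 29.6 and 29.9 and Pdx1 from 324 and 342 TPM to 118 and 111. The interaction at 16 h of FSK passed as lower for all 12 markers (median -0.81), and the part of these changes in the proteasome result was not tested. Psme1 was called lower (background 21.1%). Called higher were 11 (background 12.2%), and the calls in both directions went from 12 to 20 with median centring and 31 with ERCC. They were the alpha subunits Psma3, Psma3l and Psma5, the ATPases Psmc1, Psmc3, Psmc4, Psmc5 and Psmc6, the cap subunits Psmd12 and Psmd14, and Psmb8. Without Med14 S983A CON replicate 2, Psmc3, Psmc5 and Psmd12 were at 0.58, 0.58 and 0.52 and not called.

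The size of the rise is seen in a few genes. Psmd14 had 95.1 and 85.2 TPM in Med14 S983A CON and 159 and 160.5 at 16 h of FSK, 0.82 ± 0.049 (SE, adjusted p = 6.24e-14). Psmc6 had 54.7 and 49.9 TPM and 86.7 and 87.1, 0.72 ± 0.04 (SE, adjusted p = 1.73e-14), against 58.6 and 58.9 and 75.7 and 74.2 in WT. Psma5 had 387 and 352 TPM and 599.9 and 591, 0.69 ± 0.039 (SE, adjusted p = 2.83e-14). In these genes the mutant started lower than WT and ended above it. Psma3 and Psma3l rose by 0.72 and 0.90, and their levels are uncertain because the genes overlap.

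Called for the interaction at 16 h of FSK were Psmb8 (0.75, SE 0.13, adjusted p = 3.54e-05) and Psme3 (0.65, SE 0.056, adjusted p = 5.27e-10), 2 of 43 against a background of 10.6%. Psme3 was at 109.8 and 111 TPM in WT and 159 and 156 TPM in the mutant, from 116 and 117 and 108 and 103 in CON. Its difference was 0.56 with median centring and 0.49 with ERCC, under 1.5-fold in both. Psmd11, a cap subunit that PKA is known to phosphorylate, went down in WT and up in the mutant. It had 125 and 124 TPM in WT CON and 116 and 113 at 16 h of FSK, and 104 and 98.9 TPM and 139.6 and 140.3 in the mutant, an interaction of 0.57 ± 0.05 (SE, adjusted p = 7.09e-10). Its small fall in WT (-0.11) turned to 0.13 with median centring, and the interaction stayed positive under both scalings (0.48 and 0.42).

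**Figure D5:**
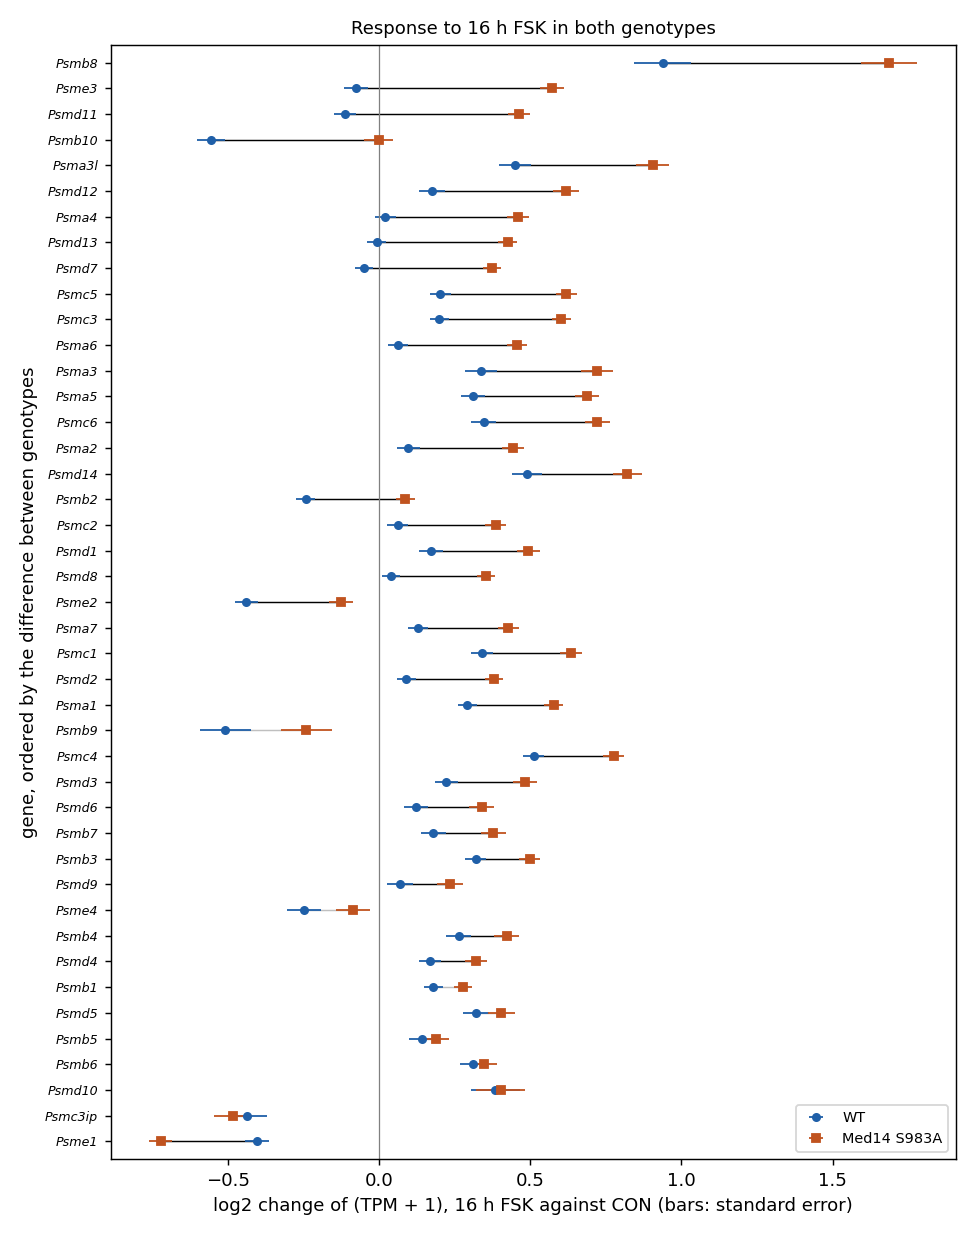
Log2 change of (TPM + 1) from CON to 16 h of FSK in WT (circles) and Med14 S983A (squares) for 43 genes, ordered by the difference between genotypes, with bars for the standard error. Black lines join genes whose difference passed the interaction test. The square lies right of the circle in 34 of those 35 genes, and Psme1 is the exception; with ERCC scaling 5 differences passed.

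At 8 h of FSK in Med14 S983A, 29 members rose and 8 fell (background 26.7% and 57.9%). Called were 8 rises (background 11.6%) and 5 falls (background 34.5%), 13 in all, which became 24 with median centring and 8 with ERCC. The rises were those of Psma1, Psma3l, Psma5, Psmc1, Psmc4, Psmd1, Psmd12 and Psme3, all under 0.8 on the log2 scale, and the falls those of Psmb9, Psmb10, Psme1, Psme2 and Psmc3ip. All 3 members called higher in WT were among them, as were the 4 called lower, while over all genes 79.8% of those called higher in WT and 79.6% of those called lower were called in the mutant. Without Med14 S983A CON replicate 2, Psma1, Psma3l, Psmd12 and Psme3 fell under 1.5-fold, at 0.47 to 0.56, and Psma3l and Psmd12 did so too without the deeply sequenced 8 h FSK replicate 2 (both 0.57). The 8 h Ex-4 response of the mutant had 29 rises and 5 falls (background 22.2% and 28.4%) and no call (background 6.3%; 37 at an unadjusted p under 0.05 in limma; 0 calls by edgeR and DESeq2). Of the 28 members that rose with 8 h of Ex-4 in WT, 25 rose in the mutant too, which is 89.3% of the WT and 86.2% of the mutant list, against 74.3% and 58.2% over all genes. The mutant at 16 h of Ex-4 had 15 rises and 7 falls (background 24.6% and 37.3%) and 1 call, the fall of Psmb9 (background 7.15%). That split was 26 and 5 with median centring and 0 and 7 with ERCC.

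Over all comparisons 19 of the 43 members were called at least once and 24 never, where 73.8% of all genes were called at least once. The 24 included Psma2, Psma4 and Psma6 of the alpha ring, Psmb1 of the beta ring, the ATPase Psmc2 and the cap subunits Psmd4, Psmd6 and Psmd7, and over the 12 treatments their changes lay between -0.54 (Psmd5) and 0.57 (Psmd3).

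Beside the members, a list of 36 genes of the ubiquitin and proteasome pathway was followed, of which 31 were tested. At 8 h of FSK in WT 15 of the 31 rose and 11 fell (5 and 5 called, with 8.77% and 34.8% of all genes called), and in the mutant 17 rose and 12 fell (10 and 6 called, with 11.6% and 34.5% of all genes). Uba1, the main ubiquitin-activating enzyme, rose most, from 243 and 236 TPM in WT CON to 658 and 670.1 at 8 h of FSK (1.47, SE 0.038, adjusted p = 2.69e-21) and from 219 and 215 TPM to 674 and 655 in the mutant (1.61, SE 0.038, adjusted p = 3.19e-22). Ddi2, the protease that cuts and frees Nrf1, rose from 13.2 and 11.8 TPM to 25.1 and 25.4 in WT (0.96, SE 0.062, adjusted p = 2.43e-13) and from 21.7 and 21.6 TPM to 63.6 and 59.3 in the mutant (1.46, SE 0.062, adjusted p = 3.68e-17). The groups of neither gene overlapped. The other called risers at 8 h in WT were Vcp, the unfoldase (0.59), the ubiquitin shuttle Rad23b (0.66) and the cap partner Txnl1 (0.72). In the mutant these 3 were called too (0.75, 0.91 and 1.01), with the Vcp partners Ufd1 (0.82), Nploc4 (0.61) and Nsfl1c (0.68), the shuttle Ubqln1 (0.63) and the deubiquitinase Uchl5 (0.65).

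The called falls at 8 h of FSK included the core assembly chaperones. Psmg2 changed by -0.97 in WT and -0.70 in the mutant, Psmg1 by -0.61 and -0.68, and Psmg4 by -0.69 in the mutant. Ngly1, which removes sugars from Nrf1 during its activation, changed by -0.81 and -0.69, and Ubqln4 by -0.67 and -0.70. None of these falls was called with median centring, where those in WT were -0.58 for Psmg2, -0.22 for Psmg1, -0.42 for Ngly1 and -0.28 for Ubqln4, and those in the mutant lay between -0.34 (Psmg1) and -0.36 (Ubqln4). At 16 h of FSK, Uba1 was still called in WT (0.83), with falls of Ubqln2 (-0.75) and Psmg2 (-0.61) that were not called with median centring (-0.51 and -0.36) or ERCC (-0.35 and -0.21). Called in the mutant at 16 h of FSK were Uba1 (0.84), Uchl5 (0.82), Nfe2l2 (0.77), Txnl1 (0.72), Ufd1 (0.60), Nsfl1c (0.60), the deubiquitinase Usp14 (0.60) and Rad23b (0.59). For 8 h of Ex-4 against FSK in WT, Psmg2 (0.72, and 0.46 with median centring) was among those called higher, and Uba1 (-0.89) and Ddi2 (-0.67) were called lower. In CON, Ddi2 was called higher in the mutant (0.75, SE 0.062, adjusted p = 8.76e-11) and the shuttle Ubqln1 (-0.85, SE 0.038, adjusted p = 3.90e-16) lower.

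The factors that read the antioxidant response element differed from each other. Nfe2l1 fell at 1 h of FSK, from 135 and 127 TPM in WT CON to 109 and 113 (-0.24, SE 0.043, adjusted p = 5.30e-05) and from 135 and 136 TPM to 114 and 115 in the mutant (-0.24, SE 0.043, adjusted p = 3.85e-05), and both changes stayed negative under the other scalings. At 8 h of FSK it had risen to 144 and 155 TPM in WT (0.19, SE 0.043, adjusted p = 2.38e-04) and 197 and 187 in the mutant (0.50, SE 0.043, adjusted p = 6.84e-11). It stood at 161 and 169.6 TPM in WT at 16 h of Ex-4 (0.33, SE 0.043, adjusted p = 3.64e-07) and 175 and 181 at 16 h of FSK (0.44, SE 0.043, adjusted p = 9.72e-10), and at 195 and 189 (0.50, SE 0.043, adjusted p = 3.13e-10) and 166 and 161 (0.27, SE 0.043, adjusted p = 3.74e-06) in the mutant, below 1.5-fold in each case by TPM. Nfe2l2, the stress factor Nrf2, went from 46.3 and 44.9 TPM to 36.01 and 38.3 in WT and from 33.9 and 34.00 TPM to 58.2 and 59.3 in the mutant at 16 h of FSK. The 16 h FSK libraries were thus the highest of all for Nfe2l2 in the mutant and among the lowest in WT. The interaction was called at 8 h (0.60, SE 0.074, adjusted p = 2.49e-07) and at 16 h of FSK (1.06, SE 0.074, adjusted p = 1.13e-11) and was 0.92 at 16 h with ERCC, and at 8 h it was under 1.5-fold with median centring (0.55) and ERCC (0.50). The WT fall at 16 h of FSK (-0.29) turned to 0.10 with ERCC. Psmg2 was the other list gene called for the interaction at 16 h of FSK (0.62, SE 0.071, adjusted p = 5.68e-08), and it lost the call with median centring (0.53) and ERCC (0.47).

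Psmc3ip, which shares only its symbol with the subunits, fell most of all members at 8 h of FSK. It went from 48.7 and 52.4 TPM in WT CON to 21.3 and 18.5 (-1.30, SE 0.064, adjusted p = 8.26e-16) and from 57.2 and 50.02 TPM to 17.1 and 17.8 in the mutant (-1.56, SE 0.064, adjusted p = 1.65e-17). It overlaps no other member in rn6 and its fall kept its direction and its call under median centring (-0.91 and -1.23) and ERCC scaling (-1.28 and -1.65).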

How the data were processed

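RNA was sequenced from 28 INS-1 libraries in 14 groups of 2. Reads were mapped by the authors with STAR 2.5.3a to rn6 plus ERCC, and the authors deposited TPM values per RefSeq transcript made with HOMER 4.11.1, each library on its own, with the exon length of the transcript. The authors also deposited raw counts of the 92 ERCC sequences. Relative fragments rebuilt as TPM times length and divided by the worth of 1 read were whole (within 0.05 reads) for 100% of 127388 low values, against 23.5% for a wrong step, so count tests were run on recovered reads as alternatives. Depth set the precision, and 2 libraries a group left 14 residual degrees of freedom over all groups.

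Of 19223 rows, 92 were ERCC, and 1676 transcripts gave way to the transcript of the same symbol with the highest mean, which left 17455 symbols. Values were compared as log2(TPM + 1) with limma 3.58.1 in R 4.3.3 (trended empirical Bayes, 14 group means, Benjamini-Hochberg over the 10275 genes whose mean reached 1 TPM), and fold changes on this scale understate those of low genes. The script was tested on simulated data. Treatments were compared with CON of the same genotype, the genotypes with each other at CON, the responses between genotypes by interaction, and Ex-4 with FSK in WT. Treatments of a genotype share its CON libraries. The authors' own analysis used DESeq2 1.24.0 by the submitters' processing notes, and no comparison of theirs was used here. Alternatives were a pseudocount of 0.1, no filter, a filter at 5 TPM, median centring, ERCC scaling, summed transcripts, libraries of the contrast alone, a replicate block, edgeR 4.0.16, DESeq2 1.42.0 with own and with ERCC size factors, leaving out each library, and no fold minimum. Summing Psma3 and Psma3l was chosen after seeing the data. Promoters came from RefSeq (GRCr8) and coordinates of genes from the deposited table (rn6).

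The members and all lists were chosen with earlier results of these data known. Named were called members, the 3 largest rises and falls past the test in the main comparisons, the catalytic subunits, the immunoproteasome genes, the activators, and regulators and called genes of the pathway list. Psmd5, Psmd8, Psmd9 and Psmd10 at 1 h, Psmd11, Sem1 and Adrm1 were named after their values were seen. Of the pathway list Psmg3, Paaf1, Ecpas and Ube3c were not found under those symbols and Pomp had a mean of 0.831 TPM. Some called genes of the pathway list are counted but not reported by name here.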

Additional observations from a re-analysis of the deposited data

Results flagged for a closer look

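The responses below were picked out because the test of the difference between the genotypes passed and either the responses passed in opposite directions or the difference was called. At 16 h of FSK the response of Psmb8 was larger in Med14 S983A by 0.7476 on the log2 scale (0.94 in WT and 1.69 in the mutant), with the same direction in both. Psme3 differed by 0.6463 (-0.08 and 0.57), Psmd11 by 0.5741 (-0.11 and 0.46) and Psmb2 by 0.3298 (-0.24 and 0.09). Of the pathway list Nfe2l2 differed by 1.0632 (-0.29 and 0.77), Psmg2 by 0.6219 (-0.61 and 0.02) and Zfand5, which is known to stimulate the proteasome, by 0.461 (-0.20 and 0.26). All 7 differences stayed positive with median centring and with ERCC. The WT fall of Zfand5 turned to 0.04 with median centring and 0.20 with ERCC. Those of Nfe2l2, Psmd11 and Psmb2 also turned under another scaling, as given above.

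At 8 h of FSK Nfe2l2 differed by 0.6036 (-0.33 and 0.27), Psmb2 by 0.1448 (-0.08 and 0.07) and Psmb3 by -0.1784 (0.09 and -0.09). The opposite small responses of Psmb2 and Psmb3 depended on the scaling of the libraries, while the sign of the differences did not. The WT fall of Nfe2l2 at 8 h depended on it too and turned to 0.06 with median centring. At 16 h of Ex-4 Psme3 differed by 0.5243 (-0.25 and 0.28) and Zfand5 by 0.4795 (-0.29 and 0.19), which fell to 0.08 and 0.04 with ERCC. The WT fall of Zfand5 at 16 h of Ex-4 itself turned to 0.04 with ERCC.

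Groups of 2 libraries were not tested for outliers.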

How the results depend on the processing

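Of 42 calls of a member in a comparison 17 were lost under some alternative and 0 changed sign. The fold minimum, the scaling and the count models moved the counts most, and with 2 libraries a group small changes rest on a spread shared over all groups. Where scaling turns a direction, TPM and ERCC answer different questions, and which one is closer to the cells was not tested.

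With no fold minimum, members counted as called were 3, 34 and 17 for WT Ex-4 at 1, 8 and 16 h, 7, 38 and 35 for WT FSK, 3, 34 and 22 for Med14 S983A Ex-4, 14, 37 and 41 for Med14 S983A FSK, 30 between genotypes at CON, 6 and 15 for the interaction with Ex-4 at 8 and 16 h, 18 and 35 with FSK, and 2, 24 and 30 for Ex-4 against FSK.

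With median centring 0 were called for WT 16 h Ex-4, 24 and 6 for WT FSK at 8 and 16 h, 24 and 20 for Med14 S983A FSK, 1 and 1 for the FSK interactions at 8 and 16 h, and 1 for Ex-4 against FSK at 8 h. The median change over the members became 0.050, 0.23 and 0.20 for WT Ex-4, 0.10, 0.57 and 0.41 for WT FSK, 0.073 and 0.12 for Med14 S983A Ex-4 at 1 and 16 h, 0.11, 0.57 and 0.58 for Med14 S983A FSK, -0.032 at CON, -0.078 and -0.092 for the Ex-4 interactions at 8 and 16 h, 0.035 and 0.22 for those with FSK, and -0.049, -0.29 and -0.18 for Ex-4 against FSK. With ERCC scaling 0 were called for WT 16 h Ex-4, 17 for WT 16 h FSK, 2 for Med14 S983A 16 h Ex-4, 1, 8 and 31 for Med14 S983A FSK, 2 at CON, 4 for the 16 h Ex-4 interaction, and 1 and 1 for the FSK interactions at 8 and 16 h. The medians were then 0.26 and 0.35 for WT Ex-4 at 8 and 16 h, 0.037 and 0.57 for WT FSK at 1 and 16 h, -0.043 for Med14 S983A 16 h Ex-4, -0.25, 0.14 and 0.67 for Med14 S983A FSK, 0.086 at CON, -0.12 and -0.40 for the Ex-4 interactions at 8 and 16 h, -0.28, -0.021 and 0.16 for those with FSK, and -0.052, 0.11 and -0.19 for Ex-4 against FSK.

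On recovered reads edgeR called 0 for WT 16 h Ex-4, 18 and 5 for WT FSK at 8 and 16 h, 23 for Med14 S983A 8 h FSK, 1 and 1 for the FSK interactions at 8 and 16 h, and 1 for Ex-4 against FSK at 8 h. DESeq2 with its own size factors called 0, 21 and 5 in the same WT comparisons, 25 and 19 for Med14 S983A FSK at 8 and 16 h, 1 and 1 for the FSK interactions, and 1 for Ex-4 against FSK at 8 h. With ERCC size factors it called 1 and 0 for WT Ex-4 at 8 and 16 h, 15 for WT 16 h FSK, 2 for Med14 S983A 16 h Ex-4, 1 and 32 for Med14 S983A FSK at 1 and 16 h, 2 at CON, 2 for the 16 h Ex-4 interaction, and 1 and 1 for the FSK interactions at 8 and 16 h.

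Leaving out 1 library at a time, the count ranged from 0 to 1 for WT 8 h Ex-4, 1 to 2 for WT 16 h FSK, 0 to 1 for Med14 S983A 16 h Ex-4, 0 to 1 for the 8 h FSK interaction and 2 to 4 for that at 16 h. The median ranged from 0.14 to 0.17 for WT 16 h FSK, lowest without WT CON replicate 1. The other ranges had their ends without Med14 S983A CON replicates 1 and 2, namely -0.0093 to 0.062 for Med14 S983A 1 h Ex-4, -0.081 to -0.0034 for 1 h FSK, 0.22 to 0.28 for 8 h FSK, 0.40 to 0.47 for 16 h FSK, -0.16 to -0.11 at CON, 0.015 to 0.089, -0.020 to 0.069 and 0.0078 to 0.091 for the Ex-4 interactions at 1, 8 and 16 h, and -0.037 to 0.031 and 0.050 to 0.13 for the FSK interactions at 1 and 8 h.

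The labels do not say whether replicate numbers pair the libraries. Deviations of same-numbered libraries correlated between -0.28 and 0.28 over 91 pairs of groups, and 17 pairs were over 0.1. These values cannot tell whether some groups were paired. With the replicate number as a block, all 22 counts stayed as they were, among them 12 for Med14 S983A 16 h FSK and 7 for WT 8 h FSK.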
